A study of Mus musculus with 4 samples.

Results

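The neighbouring genes *Peg13*, *Kcnk9*, *Trappc9* and *Chrac1* of mouse chromosome 15 were taken from the read counts of cervical motor neurons (MNs). They were chosen by symbol as an imprinted domain and are 4 of the 23420 genes listed. The choice was made with values of these libraries known, the low counts of *Peg13* in *Patz1* KO among them, so the values of the 4 genes between WT and *Patz1* KO are given as a description and without a test. All 4 passed the filter on low counts that left 14269 genes for testing.

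The MNs were differentiated from mouse embryonic stem cells (mESCs) of the E14 line as embryoid bodies, which received retinoic acid and a smoothened agonist in both genotypes. The WT group holds 2 libraries of unedited E14 cells, and the *Patz1* KO group holds 2 libraries of E14 cells labelled Patz1 -/-, in which Cas9 had been directed to *Patz1*, the gene of a zinc finger protein that the study examined for its part in chromatin boundaries. The labels do not name the KO clone behind a library, and their titles name embryonic stem cells where the source and cell type name MNs, as which they were taken. The labels do not say whether libraries of a genotype came from separate cultures, but the study calls them biological replicates, which its methods define as separate differentiations, so errors and p-values measure the spread between these. RNA was total RNA without ribosomal RNA, and no allele, strand or isoform can be read from counts per gene.

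The guide RNA behind the KO is shown because it defines the genotype compared. Its letters are given 5′ to 3′, with the start codon of *Patz1* in capitals, and they lie on the plus strand at chr11:3290600-3290619 of GRCm38 (mm10), across the junction of the 5′ UTR and the coding sequence in exon 1.
*Patz1* guide: aaggggcagcgaccATGgag

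Imprinted genes are expressed mainly from the copy inherited from one parent, and the parental copies differ by DNA methylation at control regions. In this domain the control region lies at *Peg13*, a non-coding RNA made from the paternal copy, where the insulator protein CTCF and cohesin bind the unmethylated copy. *Kcnk9* is expressed mainly from the maternal copy in brain, and *Trappc9*, *Chrac1* and their neighbour *Ago2* show a maternal bias in mouse brain. *Kcnk9* encodes the potassium leak channel TASK-3, *Trappc9* a subunit of the TRAPPII vesicle tethering complex, and *Chrac1* a histone-fold subunit of the chromatin remodelling complex CHRAC.

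In the GENCODE M21 annotation of GRCm38, the 4 genes span 596.5 kb of chromosome 15. *Kcnk9* (72501089 to 72546340, minus strand) comes first and ends 43.3 kb before *Trappc9* (72589620 to 73061204, minus strand). *Peg13* (72805600 to 72810324) is a transcript of 4725 bases without introns that lies in *Trappc9*, on the same strand and with 0 exon bases shared. Reads from unspliced *Trappc9* RNA that fall there cannot be told apart from *Peg13* reads. *Chrac1* (73090392 to 73097554, plus strand) starts 29.2 kb beyond *Trappc9*, and 219 of its 2353 exon bases overlap those of *Ago2* on the other strand, so reads may be shared between the pair.

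The total count per library went from 14769104 to 23881522. *Patz1* had 1363 and 1499 WT counts and 1154 and 714 KO counts, a log2 fold change of -1.04 (standard error 0.095), so its transcripts were still counted in the KO. All 8 MN markers were detected, from *Isl1* and *Mnx1* to *Chat*, and their summed level was 571.0 to 612.8 CPM (counts scaled to a fixed library size) in WT and 845.6 to 929.0 CPM in *Patz1* KO. Of 10 endoderm markers 7 were lower in *Patz1* KO by the quasi-likelihood test of edgeR (called at 0.05 after Benjamini-Hochberg adjustment over all genes tested), and so were all 7 mesenchyme markers. Of the 8 MN markers 7 were called higher, while *Isl1* was not called, with means of 133 CPM in WT and 117 CPM in *Patz1* KO. Over all genes, 47.9% were called by this test, 24.1% as higher and 23.8% as lower in *Patz1* KO.

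*Peg13* was expressed in WT MNs and far lower in *Patz1* KO MNs. Its counts were 338 and 304 for WT but 34 and 22 for *Patz1* KO, whose libraries were the deeper ones. In CPM, with library sizes corrected by the TMM method, its level was 22.7 and 19.1 in WT and 1.40 and 1.31 in *Patz1* KO. The groups lay far apart relative to the spread within each of them. The means were 20.9 ± 2.52 and 1.36 ± 0.0642 CPM (SD, n = 2 each), and the fitted log2 fold change (*Patz1* KO over WT) was -3.93 (standard error 0.20), a level 15.2-fold lower in the KO. Of all genes tested, 0.442% had a more negative log2 fold change.

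The 95% Poisson intervals of the *Peg13* counts, which cover counting error only, were 303 to 376 and 271 to 340 counts in WT and 23.5 to 47.5 and 13.8 to 33.3 counts in *Patz1* KO. The WT intervals lay above those of the KO in every pair of libraries. *Peg13* was still counted in *Patz1* KO, at a level of about 1 CPM. The summed levels of 2 marker lists of other cell types were lower in the same libraries. The 10 endoderm markers summed to 71.8 to 80.3 CPM in WT and 12.99 to 13.8 CPM in *Patz1* KO, a ratio of 5.68, and the 7 mesenchyme markers to 195.7 to 214.5 and 35.6 to 42.5 CPM, a ratio of 5.25. The 6 ventral progenitor markers summed to 787.2 to 810.5 and 568.2 to 589.5 CPM, with 2 called lower (*Nes* and *Pax6*) and 2 higher (*Nkx2-2* and *Nkx6-1*). Over all genes tested 23.8% were called lower and 24.1% higher. The 5 pluripotency markers summed to 8.52 to 11.0 and 5.61 to 7.51 CPM. Of the 3 tested, *Klf4* was called lower, while *Nanog* and *Zfp42* were not called. *Zfp42* (means of 1.42 and 1.92 CPM) and *Esrrb*, which was not tested (0.457 and 0.795 CPM), had higher means in *Patz1* KO. No marker of these lists was at 0 in all libraries, and *Apoa1* and *Pou5f1* were under 1 CPM in each. The part of these cells in the *Peg13* difference was not tested, and in bulk RNA fewer cells of a type and less RNA per cell cannot be told apart.

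*Kcnk9* was scarce in WT and higher in *Patz1* KO. It had 14 and 17 WT counts and 104 and 53 KO counts, or 0.939 and 1.07 CPM against 4.29 and 3.16 CPM. The lower KO library was still well above the higher WT library, while the KO libraries differed from each other more than the WT libraries did. The means were 1.00 ± 0.0914 and 3.72 ± 0.799 CPM (SD, n = 2 each), and the log2 fold change was 1.90 (standard error 0.32), a level 3.73-fold higher in the KO. The counting intervals were 7.65 to 23.5 and 9.90 to 27.2 counts in WT and 84.98 to 126 and 39.7 to 69.3 counts in *Patz1* KO, and were widest relative to the count in WT. Without *Patz1* KO replicate 1 the log2 fold change of *Kcnk9* was 1.65. TASK-3 is a channel of mature neurons. The sum of 8 neuron markers was 4033 to 4280 CPM in WT and 5870 to 6177 CPM in *Patz1* KO, a ratio of 1.45. The largest parts of it were *Tubb3* (means of 1672 and 2419 CPM) and *Dcx* (830 and 1675 CPM). Of the 8, 4 were called higher (*Tubb3*, *Stmn2*, *Dcx* and *Rbfox3*) and 1 lower (*Snap25*), while *Map2*, *Elavl3* and *Elavl4* were not called. Over all genes tested 24.1% were called higher and 23.8% lower. Of 4 glial markers, *Aldh1l1* was called higher, with 1.37 ± 0.430 and 8.70 ± 3.79 CPM (SD, n = 2 each), while *Gfap*, *Aqp4* and *S100b* were under 1 CPM in each library and *Gfap* had 0 counts in *Patz1* KO. The part of neuron and glia content in the *Kcnk9* difference was not tested.

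*Trappc9* was the most counted of the 4 genes and differed less. Its counts were 1092 and 1039 in WT and 2288 and 1481 in the KO, or 73.3 and 65.3 CPM against 94.3 and 88.2 CPM. Both KO libraries lay above both WT libraries. The means were 69.3 ± 5.63 and 91.3 ± 4.30 CPM (SD, n = 2 each), and the log2 fold change was 0.40 (standard error 0.094), 1.32-fold higher in the KO.

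*Chrac1* showed no separation of the genotypes. It had 442 and 419 WT counts and 661 and 558 KO counts, or 29.7 and 26.3 CPM against 27.3 and 33.2 CPM. The KO values lay on either side of the higher WT value. The means were 28.0 ± 2.35 and 30.2 ± 4.24 CPM (SD, n = 2 each), and the log2 fold change of 0.11 was smaller than its standard error of 0.12. With single libraries left out, the value went from -0.03 to 0.25, so its direction rested on *Patz1* KO replicate 2, without which it was -0.03.

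**Figure D1:**
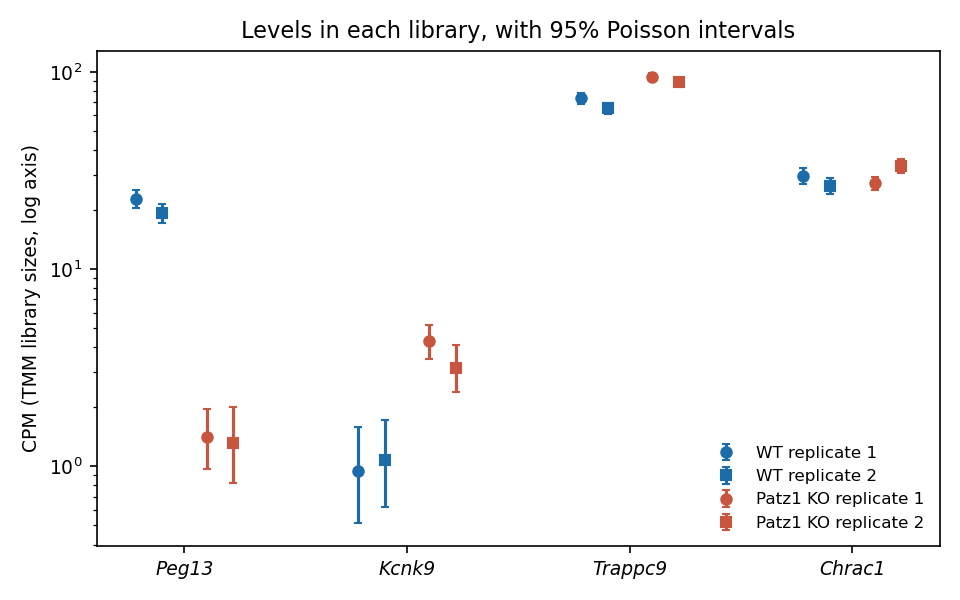
Level of each gene in CPM (log axis) in the 2 WT libraries (blue) and the 2 *Patz1* KO libraries (red), with circles for replicate 1, squares for replicate 2 and bars for 95% Poisson intervals. *Peg13* lies between 19.1 and 22.7 CPM in WT and near 1 CPM in *Patz1* KO, *Kcnk9* is higher in *Patz1* KO, and the *Chrac1* values of the genotypes overlap.

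Over the 4 genes, 3 did not overlap between the genotypes, with *Kcnk9* and *Trappc9* above and *Peg13* below WT in *Patz1* KO. Among all genes tested 74.2% did not overlap, with 37.0% above and 37.2% below WT in *Patz1* KO. Changes of 1 or more in size on the log2 scale were seen for 2 of the 4 genes, *Peg13* and *Kcnk9*, and for 13.7% of all genes tested. *Peg13* lay near the lower end of the distribution, and *Kcnk9* lay near the upper end, with 167 genes above it. *Trappc9* and *Chrac1* lay within the bulk, where 44.1% and 82.0% of genes had a larger change in size.

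**Figure D2:**
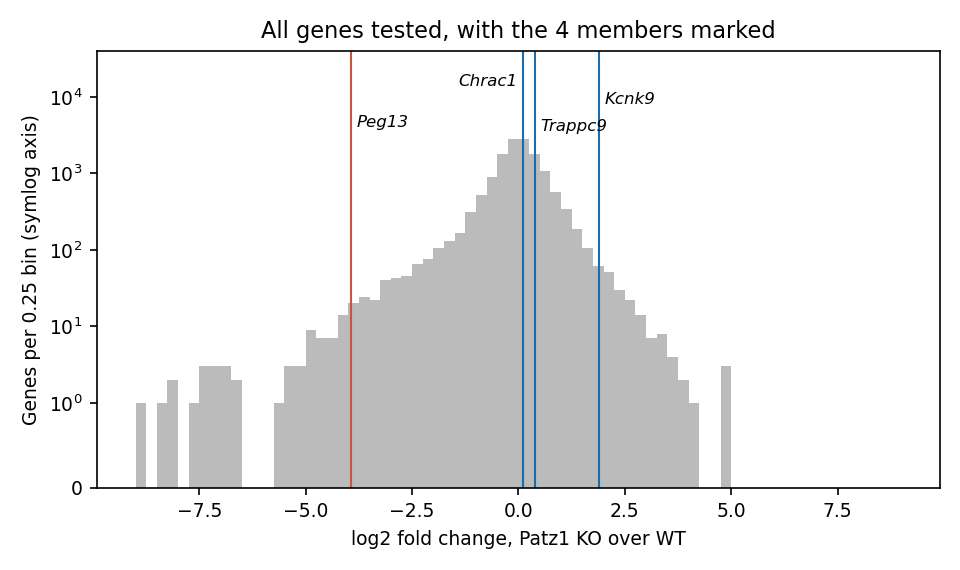
Number of genes (vertical symlog axis, bins of 0.25) by log2 fold change, *Patz1* KO over WT, for the 14269 genes tested, with lines at the 4 genes. *Peg13* at -3.93 and *Kcnk9* at 1.90 stand in the tails, and *Chrac1* and *Trappc9* stand in the central peak.

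Ratios within a library do not depend on how libraries are scaled. For every 100 *Trappc9* counts there were 31.0 and 29.3 *Peg13* counts in WT, whereas both *Patz1* KO libraries had 1.49. The *Patz1* KO values rest on 34 and 22 *Peg13* counts, with counting intervals of 23.5 to 47.5 and 13.8 to 33.3 counts. Their closeness is therefore finer than counting error allows and cannot be read as precision. The same ratio for *Kcnk9* was 1.28 and 1.64 in WT and 4.55 and 3.58 in *Patz1* KO. *Chrac1* had 40.5 and 40.3 counts for every 100 of *Trappc9* in WT and 28.9 and 37.7 in *Patz1* KO. *Patz1* KO replicate 1 lay apart from WT, while replicate 2 lay near it, and no counting error was computed for these ratios.

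Levels were compared between genes per kilobase of annotated exon. In WT, *Chrac1* (11.9 ± 0.998 CPM per kb; SD, n = 2) and *Trappc9* (8.73 ± 0.709 CPM per kb) came first, followed by *Peg13* (4.42 ± 0.534 CPM per kb) and *Kcnk9* (0.0816 ± 0.00743 CPM per kb). Of the genes tested that had an annotated length, 45.4% were below *Peg13* in WT and 0.723% were below *Kcnk9*. In *Patz1* KO, *Chrac1* (12.9 ± 1.80 CPM per kb) and *Trappc9* (11.5 ± 0.541 CPM per kb) did not differ beyond their spread. *Kcnk9* (0.303 ± 0.0649 CPM per kb) and *Peg13* (0.287 ± 0.0136 CPM per kb) did not differ beyond theirs either, with 8.64% and 8.25% of genes below them. These genes had lain far apart in WT. With the longest annotated transcript as length, *Trappc9* (15.3 CPM per kb in WT) came before *Chrac1* (13.2 CPM per kb). In *Patz1* KO that length gave 20.2 ± 0.949 CPM per kb for *Trappc9* and 14.3 ± 2.01 CPM per kb for *Chrac1*, which differed beyond their spread. The order of these genes, and whether they differ in the KO, thus depends on the isoforms assumed. *Kcnk9* and *Peg13* have 1 annotated transcript each, of 12300 and 4725 bases, so this alternative could not move them. Their likeness in the KO rests on those lengths, as their KO means were 3.72 and 1.36 CPM.

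The genes around the domain were then compared between the genotypes. Of 14 neighbours listed, 13 were in the files and 11 were tested, and 7 of them were called, 4 higher and 3 lower in *Patz1* KO, a share of 63.6% against 47.9% of all genes. Their median log2 fold change was 0.37, against -0.0014 for all genes, and 0.21 without *Patz1* KO replicate 1. None of the 11 had a log2 fold change as large in size as those of *Peg13* or *Kcnk9*. Of 555 genes of chromosome 15 tested, the 4 genes left out, 132 were called higher and 145 lower, and the median was -0.0017.

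The nearest genes of the list on either side were lower in *Patz1* KO. *Ago2*, which encodes the small RNA binding protein Argonaute 2, had 1441 and 1560 WT counts and 1922 and 1186 KO counts, or 97.4 ± 0.968 and 74.95 ± 6.06 CPM (SD, n = 2 each). Its log2 fold change was -0.38 (standard error 0.092, edgeR adjusted p = 0.00255). *Col22a1*, a collagen gene on the other side of *Kcnk9*, fell by 0.56 (log2, standard error 0.11, edgeR adjusted p = 0.00053). Thus *Trappc9* and *Kcnk9* were higher in the KO while *Ago2* and *Col22a1* were lower. *Chrac1*, whose exons overlap those of *Ago2*, showed no separation, and of the 7 neighbours called 4 were higher. Whether the domain has an edge at these genes was not tested. Further out, *Ptk2*, the focal adhesion kinase gene, had a log2 fold change of -0.0017 (standard error 0.087), whose sign differed between alternatives. *Dennd3*, which encodes an activator of a Rab GTPase, had 11 and 11 WT counts and 29 and 24 KO counts and was not called (log2 fold change 0.86, edgeR adjusted p = 0.095).

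The phosphatase gene *Ptp4a3* and the gene of the RNA binding protein *Khdrbs3* rose by 0.45 (edgeR adjusted p = 0.0023) and 0.41 (edgeR adjusted p = 0.0012). *Adgrb1*, which encodes an adhesion receptor of neurons and glia and starts 1.71 Mb from *Peg13*, went from 279 and 240 WT counts to 1001 and 605 KO counts, and its log2 fold change of 1.20 (standard error 0.13, edgeR adjusted p = 5.17e-07) was the largest among the 11 neighbours tested. *Arc*, a gene induced by neuronal activity, had 25 and 47 WT counts and 27 and 21 KO counts, a log2 fold change of -0.98 (edgeR adjusted p = 0.031). *Arc* was not called without WT replicate 2 (-0.50, edgeR adjusted p = 0.54), without *Patz1* KO replicate 1 (-0.89, edgeR adjusted p = 0.071) or with DESeq2 (-0.97, adjusted p = 0.18), and its adjusted p went from 0.018 to 0.54 over 11 alternatives. The transporter gene *Slc45a4* (log2 fold change 0.37, edgeR adjusted p = 0.025) was not called without WT replicate 1 (0.32), WT replicate 2 (0.42) or *Patz1* KO replicate 1 (0.21) or with DESeq2, and its adjusted p went from 9.51e-05 to 0.18 over the alternatives. *Fam135b* (log2 fold change 0.48) and the zinc finger gene *Zfat* (-0.13) were not called, with edgeR adjusted p of 0.068 and 0.44, but *Fam135b* was called without *Patz1* KO replicate 2 (0.55, adjusted p = 0.030, going from 0.030 to 0.31 across alternatives) and without the filter on low counts (0.51, adjusted p = 0.043). *Gpr20*, a receptor gene, had at most 6 counts in a library, and *Mroh5* had 0 counts in all of them.

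**Figure D3:**
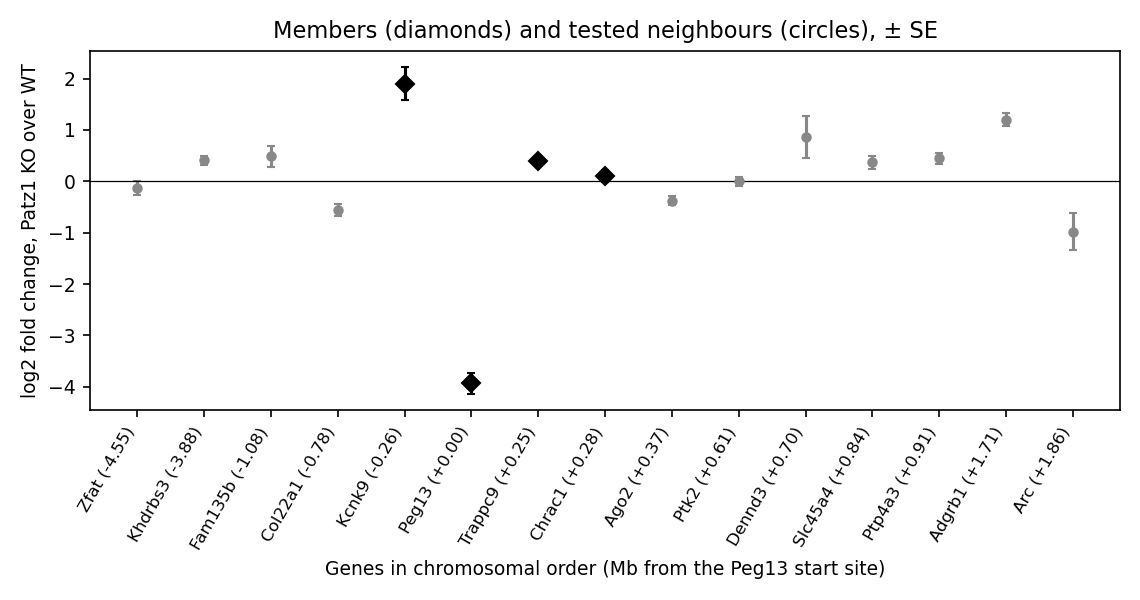
Log2 fold change, *Patz1* KO over WT, with its standard error, for the 4 genes (diamonds) and 11 tested neighbours (circles), in chromosomal order with the distance in Mb from the *Peg13* start site in brackets. *Peg13* at -3.93 and *Kcnk9* at 1.90 are the most extreme points, and *Col22a1* and *Ago2* on either side are below 0.

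The complexes and families of the 3 coding genes were followed through lists of their partners, from which the 4 genes themselves were left out. TRAPP complexes tether vesicles in the secretory pathway. Of 14 other subunit genes tested, 5 were called, all of them higher in *Patz1* KO. That is a share of 35.7%, against 47.9% of all genes tested, of which 24.1% were called higher. The median log2 fold change of the 14 was 0.18. *Trappc2*, which shares 131 exon bases with *Ofd1*, went from 284 and 290 counts to 911 and 697 (log2 fold change 1.08, edgeR adjusted p = 4.39e-07). *Trappc6a* rose by 1.05 and *Trappc14* by 0.51 on the log2 scale (edgeR adjusted p = 1.68e-06 and 0.00052). *Trappc10*, the partner of TRAPPC9 in TRAPPII and named here after its values were seen, had 79.3 ± 0.815 CPM in WT and 80.2 ± 9.54 CPM in *Patz1* KO (SD, n = 2 each), with a log2 fold change of 0.018 (standard error 0.097) whose sign differed between alternatives. Without WT replicate 2, fewer subunits were called, and the same held over all genes. TRAPPC9 is also known as a binding partner of the kinases NIK and IKKβ of the NF-κB pathway, and of 10 genes of that pathway 2 were called, a share of 20% against 47.9% of all genes. *Nfkb2*, which shares 299 exon bases with *Psd*, fell by 0.76 (edgeR adjusted p = 0.0060) and *Ikbkb* rose by 0.25 (edgeR adjusted p = 0.042), while *Nfkb1* (-0.26) was not called (edgeR adjusted p = 0.074). Without WT replicate 1, neither *Nfkb2* (-0.69, adjusted p = 0.056, going from 0.00034 to 0.056 across alternatives) nor *Ikbkb* (0.24, adjusted p = 0.22, going from 0.0023 to 0.22) was called. *Ikbkb* was not called without WT replicate 2 (0.26) or *Patz1* KO replicate 1 (0.17), with library size alone (0.22) or with DESeq2 (0.26) either. *Nfkb1* was called without *Patz1* KO replicate 1 (-0.35, adjusted p = 0.0065, going from 0.0065 to 0.57) and with the replicate number as a block (-0.26, adjusted p = 0.034).

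*Kcnk9* belongs to the two-pore domain potassium channels, which carry the leak current that sets the resting potential. Of 13 other family genes 6 were tested, and 5 of those were called, 2 higher and 3 lower, a share of 83.3% against 47.9% of all genes tested. *Kcnk3*, the gene of TASK-1, which is the closest relative of TASK-3, had 32 and 28 WT counts and 220 and 172 KO counts, or 1.95 ± 0.274 and 9.66 ± 0.834 CPM (SD, n = 2 each). Its log2 fold change was 2.30 (standard error 0.23, edgeR adjusted p = 2.92e-07), and 229 of its 3976 exon bases are shared with *Gm9899* on the other strand. *Kcnk1* and *Kcnk6*, genes of the TWIK branch of the family, fell by 1.43 and 2.01 on the log2 scale (edgeR adjusted p = 0.00042 and 0.00095). The median of the 6 was -0.14, and for the same 6 genes it was -0.36 without *Patz1* KO replicate 1 and 0.0041 without replicate 2.

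CHRAC and related complexes share the ISWI ATPases, which slide nucleosomes. Of 13 genes listed for these complexes other than *Chrac1*, all tested, 12 were called, 3 higher and 9 lower in *Patz1* KO. That is a share of 92.3% against 47.9% of all genes, of which 23.8% were called lower. Among the 3 higher was *Pole4* (log2 fold change 0.52), which encodes a subunit of DNA polymerase epsilon and not of these complexes. The median of the 13 was -0.31. *Pole3*, whose product pairs with CHRAC1, went from 447 and 485 WT counts to 370 and 269 KO counts (log2 fold change -0.95, edgeR adjusted p = 2.91e-06), while *Chrac1* itself showed no separation. *Bptf*, a subunit of the remodeller NURF, fell by 0.76, and *Baz1a*, which encodes the ACF1 subunit of CHRAC and ACF, by 0.74 (edgeR adjusted p = 3.81e-06 and 6.40e-06). Fewer of the 13 were called without WT replicate 1 or without WT replicate 2, and the same held over all genes. The 92.3% thus rests on both WT libraries. The median was -0.32 without WT replicate 1 and -0.24 without WT replicate 2.

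**Figure D4:**
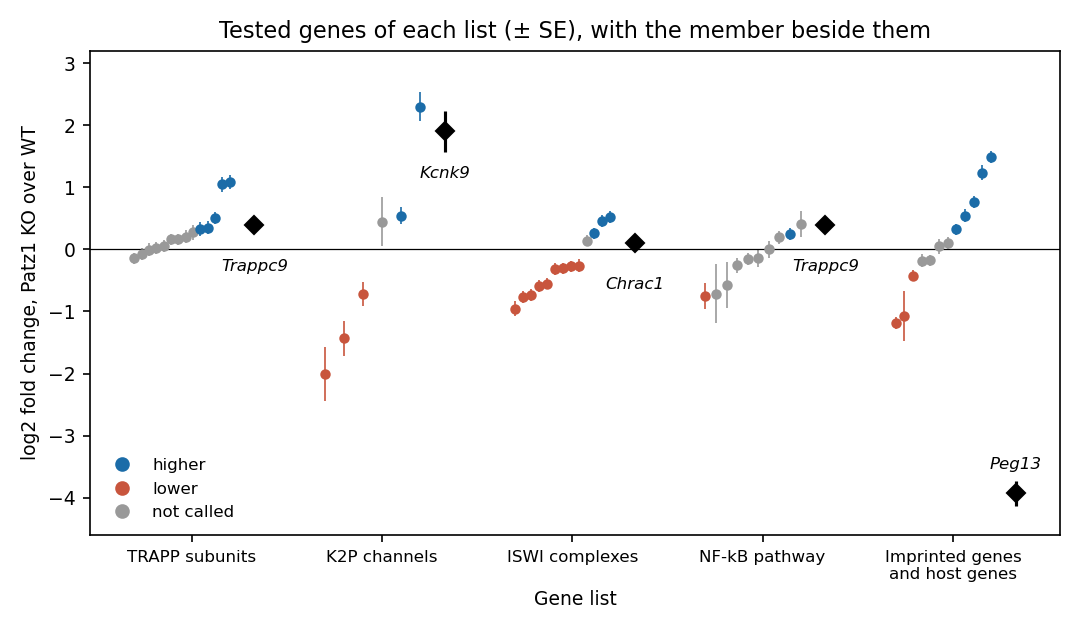
Log2 fold change, *Patz1* KO over WT, with its standard error, for the tested genes of 5 lists (blue for called higher, red for called lower, grey for not called) and the gene of the domain that belongs to each list (black diamond). *Chrac1* lies above most genes of the ISWI complexes, *Kcnk9* lies beside *Kcnk3* at 2.30, and *Peg13* at -3.93 lies below every gene of the imprinted list.

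*Peg13* resembles other imprinted transcripts that lie within a host gene, and 12 such transcripts and host genes were tested. Of these, 5 were called higher and 3 lower in *Patz1* KO, a share of 66.7% against 47.9% of all genes. Their median log2 fold change was 0.079, which was 0.16 without *Patz1* KO replicate 1 and 0.0009 without replicate 2. One of them, *Nap1l5* in an intron of *Herc3*, was higher in the KO together with its host. *Nap1l5*, which encodes a nucleosome assembly protein, went from 784 and 742 counts to 3355 and 2341 (log2 fold change 1.49, edgeR adjusted p = 8.9e-10), and *Herc3*, a ubiquitin ligase gene, from 259 and 273 counts to 1050 and 638 (log2 fold change 1.24, edgeR adjusted p = 1.19e-07). *Kcnq1ot1*, a paternally expressed long non-coding RNA antisense to *Kcnq1*, with which it shares 121 exon bases, fell from 5689 and 7087 counts to 4247 and 3160 (log2 fold change -1.19, edgeR adjusted p = 3.76e-08). The log2 fold change of *Peg13*, at -3.93, was below that of each of the 12 genes, and that difference was not tested.

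Factors that bind or maintain such control regions were measured in the same libraries. Of 12 genes tested, 7 were called lower and 2 higher in *Patz1* KO, a share of 75% against 47.9% of all genes, of which 23.8% were called lower. The median of the 12 was -0.27. *Ctcf*, whose exons overlap *Agrp* and *Gm5914* on the other strand, had 2392 and 2592 WT counts and 2960 and 1899 KO counts, a log2 fold change of -0.46 (standard error 0.086, edgeR adjusted p = 0.00027). *Dnmt1*, which encodes the maintenance DNA methyltransferase, fell by 0.59, and *Stag1*, a cohesin subunit gene, by 0.51 (edgeR adjusted p = 2.84e-05 and 0.00012). The 2 called higher were *Smc1a*, also a cohesin subunit gene, and *Zfp57*, at 0.33 and 0.32 (edgeR adjusted p = 0.0041 and 0.011). *Nipbl*, *Maz* and *Trim28* were not called. Fewer of the 12 were called without WT replicate 1 or without WT replicate 2, and the same held over all genes. The 75% thus rests on both WT libraries. The median was -0.32 without WT replicate 1 and -0.24 without WT replicate 2. The binding of these factors and the methylation of the *Peg13* region were not analysed here.

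The genes whose pattern over the 4 libraries was most like that of *Peg13* were *Ffar4*, *Enpp1*, *Ptx3*, *Vtn* and *Cldn6*, by the Euclidean distance between log2 CPM values centred on each gene's mean (0.223 to 0.355). They lie on 5 other chromosomes. *Vtn*, the gene of the matrix protein vitronectin, had 850 and 884 WT counts and 82 and 72 KO counts. *Cldn6*, a claudin gene of embryonic epithelia, had 247 and 230 WT counts and 20 and 19 KO counts, and *Enpp1*, a nucleotide pyrophosphatase gene, 120 and 120 counts against 12 and 9. *Ffar4*, a fatty acid receptor gene, and *Ptx3*, a pentraxin gene, had 1 count in each *Patz1* KO library, against 32 and 32 and 38 and 39 in WT. Their fitted log2 fold changes of -5.23 and -5.49 were larger in size than the -3.93 of *Peg13*. The log2 CPM values of the distance held a prior count of 2, which narrows the differences of genes with few counts. Among the genes most like *Kcnk9* was *Syndig1*, a gene of synapse differentiation (distance 0.115), with 106 and 138 WT counts and 718 and 370 KO counts. With 2 libraries per genotype such likeness rests mainly on the difference between the genotypes.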

How the data were processed

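Cervical MNs were profiled by RNA-seq in 2 WT and 2 *Patz1* KO libraries, grouped by the genotype and replicate number of their titles. Per the labels and the paper, the authors mapped reads to mm10 and deposited raw read counts per gene symbol, without normalization. The submitters' processing notes name TopHat2 2.1.1, Bowtie2 2.3.1 and featureCounts 1.6.2. The annotation and strand setting of the counting are not given in the sources used here, so reads of overlapping genes may be counted with either. Total counts per library were 14769104 to 23881522.

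Counts were scaled with TMM, filtered with filterByExpr (minimum count 10) and tested with edgeR 4.0.16 (limma 3.58.1, R 4.3.3) by the quasi-likelihood test, two-sided, at an adjusted p below 0.05. Standard errors were obtained from the log2 fold change and its F statistic. The adjusted p values in the text come from this fit unless DESeq2 (1.42.0) is named. Poisson intervals are exact. Positions and exon lengths came from GENCODE M21 on GRCm38, which matched 22981 of 23420 symbols. The older symbols Eif2c2 and Bai1 were read as *Ago2* and *Adgrb1*, BC037034 as *Trappc14*, and *Tsnare1* was not among the symbols. Scripts were run in Python 3.11.15 after the tests had been checked on simulated counts.

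The 4 genes and the gene lists were chosen with earlier results of these data known. Named were the 4 genes, *Patz1*, every neighbour listed, the 3 genes of smallest p in each other list, the 5 genes most like *Peg13* and the 3 most like *Kcnk9*. Of the last 3, 2 are not reported here. Alternatives were size factors of DESeq2, plain library sizes, TMM with the 20 top genes removed, no filter, at least 10 counts in every library, a replicate block, DESeq2's Wald test, each library left out and the longest transcript as length. ChIP-seq, Micro-C and mESC data were not analysed here.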

Additional observations from a re-analysis of the deposited data

How the results depend on the processing

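The log2 fold changes of *Peg13*, *Kcnk9* and *Trappc9* kept their direction under all 11 alternatives, and *Peg13* stayed between -4.04 and -3.80. Without each library in turn, where a lone library is assumed to vary like the other group, *Kcnk9* went from 1.65 to 2.09 and *Chrac1* from -0.03 to 0.25, and 3 or 4 of the 4 genes did not overlap. Genes called over all genes numbered 6837, and 4521 (without WT replicate 2) to 7816 without a library, with 5118 by DESeq2's Wald test. The deviations of same-numbered libraries had a correlation of 0.030 over all genes, which cannot show whether these libraries were handled together. With the replicate block 7363 genes were called, *Nfkb1* among them, and *Peg13* was at -3.95. The ranges without a library were 3 to 7 calls for TRAPP, 7 to 12 for ISWI, 0 to 3 for NF-κB and 4 to 12 for the control region factors. NF-κB also had 1 call with library size alone and 1 with DESeq2's Wald test. List medians without a library went from 0.21 to 0.42 for the neighbours, -0.79 to 0.0041 for the channels, -0.35 to -0.24 for ISWI, 0.0009 to 0.16 for the imprinted list and -0.33 to -0.24 for the factors. The neighbours' median was 0.21 without the filter and 0.19 with DESeq2's Wald test, where *Gpr20* entered, and 0.39 and 0.38 over the same 11 genes. The channels' was 0.45 with at least 10 counts in every library, which left 5 genes, and the -0.79 without WT replicate 2 was over 8 genes, with -0.20 over the same 6. That of chromosome 15 was -0.0297 with library size alone, -0.0252 without the filter and -0.0387 with DESeq2's Wald test. The last pair held 724 genes, and the same 555 gave 0.020 and 0.010. The cause of the other moves was not tested. Depth limits *Kcnk9* in WT most, with 14 and 17 counts.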
